A study of Mus musculus with 6 samples.

Results

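The genes described here are 9 members of the CC chemokine system that draw monocytes and related leukocytes into tissue. They are the ligand genes Ccl2, Ccl3, Ccl4, Ccl5, Ccl7, Ccl8 and Ccl12 and the receptor genes Ccr1 and Ccr2. They were taken by symbol from the 17564 genes of the deposited table, and all 9 had a row and passed the filter on low values. Bulk RNA sequencing was done on whole back skin of 8-week-old wild-type C57BL/6 mice, with 3 samples in each of 2 groups. Treated skin was shaved, depilated and given 3 µg of SspA, known as the staphylococcal V8 protease, and 10 µg of HDM (house dust mite extract) on its surface. The application was made again 3 days later, and the skin was collected 7 days after the first application. Untreated skin was shaved and depilated and received neither agent. The labels give no collection day for it. Whether each sample is a separate mouse is not stated either, and the p-values then cover only sample-to-sample spread, possibly technical.

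CC chemokines are small secreted proteins that bind G protein-coupled receptors on leukocytes and direct their migration. Ccl2, Ccl7, Ccl8 and Ccl12 encode the monocyte chemoattractant proteins of the mouse, most of which act through CCR2, the receptor that classical monocytes need to leave the bone marrow. Ccl3, Ccl4 and Ccl5 encode macrophage inflammatory proteins and RANTES, several of which act through CCR1. In inflamed skin such ligands are made by resident cells and by the leukocytes that enter it.

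Values are scaled reads, that is, whole reads per gene multiplied by 1 factor per library so that all libraries have nearly the same total. The libraries held 4928245 to 7545567 reads, so 1 read was worth 0.84 to 1.29 scaled reads. Below, T1 to T3 are treated replicates 1 to 3 and U1 to U3 untreated replicates 1 to 3. T3 was the deepest library and U2 the shallowest. Skin identity was checked with the keratinocyte genes Krt5, Krt14, Krt1 and Krt10, which summed to 6020 to 8110 scaled reads in treated skin and 7565 to 8261 in untreated skin. In whole tissue, fewer cells of a type and less RNA per cell cannot be told apart.

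Treated skin held more RNA of 3 of the 9 genes, namely the ligand genes Ccl3 and Ccl4 and the receptor gene Ccr1. Over all 15534 genes tested, 9.26% were called higher in treated skin (limma on log2(value + 1), Benjamini-Hochberg adjusted p under 0.05). None of the 9 was called lower, against 7.23% of all tested genes. For 6 of the 9 genes all treated values lay above all untreated ones, against 21.7% of all tested genes, and for none did they all lie below, against 15.6%. The edgeR quasi-likelihood test on recovered reads called the same 3 genes higher, against 8.04% of all tested genes. All 9 fold changes were above 0, against 54.9% of all tested genes. Their median log2 fold change was 0.76, beside 0.03 over all tested genes. The median is a description of the list, which was chosen with earlier results of these data known.

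**Figure D1:**
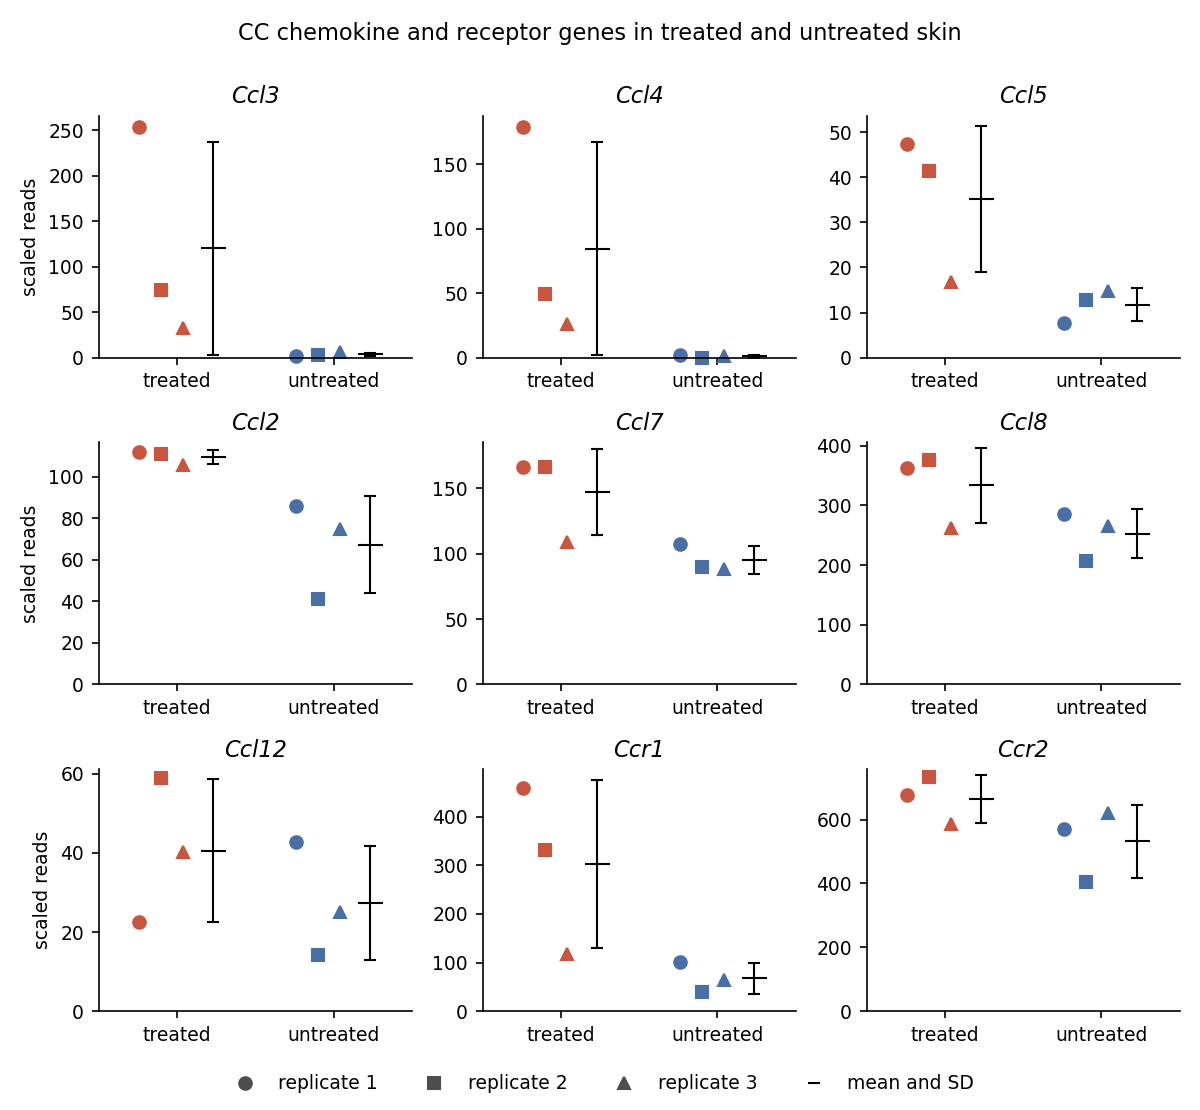
Scaled reads of each of the 9 genes (y axis, linear, from 0) in the 3 treated and 3 untreated libraries, with marker shape for the replicate number and a bar for the mean and SD. Ccl3, Ccl4 and Ccr1 varied widely among treated libraries, and the lowest treated value of Ccr1 (118, T3) lay close to its highest untreated value (101, U1), whereas treated Ccl2 lay between 106 and 112 scaled reads.

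Ccl3 and Ccl4, which encode the macrophage inflammatory proteins 1-alpha and 1-beta, were close to undetected in untreated skin. Ccl3 had 253, 74.1 and 32.8 scaled reads in T1, T2 and T3, against 2.2, 2.57 and 5.68 in U1, U2 and U3. Its groups did not overlap, and T1 held 7.73 times as much as T3. Ccl3 rose in treated skin (log2 fold change 4.35 ± 0.66 SE, adjusted p = 0.0053, limma). Ccl4 had 179, 49.0 and 26.1 scaled reads in T1, T2 and T3, against 2.2, 0 and 1.14 in U1, U2 and U3. Every treated library was above every untreated one, and T1 was again the highest, at 6.86 times T3. Ccl4 rose as well (log2 fold change 5.04 ± 0.70 SE, adjusted p = 0.0043, limma).

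These untreated levels rest on few reads, so the size of either change is uncertain. Ccl4 had 234 reads in the treated and 3 in the untreated group, a depth-adjusted ratio of 66.9 (95% counting interval 22.6 to 327). Ccl3 had 331 reads in the treated and 9 in the untreated group, a ratio of 31.6 (95% counting interval 16.4 to 69.6). These intervals cover counting error only and not the spread between samples. Without T1 the log2 fold changes were 3.57 for Ccl3 and 4.28 for Ccl4, with adjusted p = 0.0145 for both (limma). Ccl3 was not called by limma-voom (adjusted p = 0.0644), and Ccl4 was called under all 21 alternatives at the same threshold.

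Ccl3 and Ccl4 lie next to each other on chromosome 11 of mm10, on opposite strands and 13.2 kb apart. Ccl3 spans 83647843 to 83649378 on the minus strand, and Ccl4 spans 83662584 to 83664683 on the plus strand. Set per length of transcript, the Ccl4 level was 0.845, 0.793 and 0.953 of the Ccl3 level in T1, T2 and T3. The 2 genes thus stood at similar levels per length in each treated library, although both levels differed several-fold between those libraries.

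Ccl5, which encodes RANTES, a ligand made by T cells and NK cells among others, had 47.5, 41.4 and 16.8 scaled reads in T1, T2 and T3. It had 7.69, 12.9 and 14.8 in U1, U2 and U3. The groups did not overlap, but T3 lay just above U3. The difference missed the threshold (log2 fold change 1.42 ± 0.43 SE, 95% interval 0.44 to 2.41, adjusted p = 0.055, limma). Without T3 it was called, with a log2 fold change of 1.87 and adjusted p = 0.0102. The authors' deposited table also calls Ccl5 higher (log2 fold change 1.54, adjusted p = 0.0446). There, 7.26% of the 17564 genes are called higher, and of the 9 genes the authors' deposited table calls Ccl3, Ccl4, Ccl5 and Ccr1.

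The 4 monocyte chemoattractant protein genes had positive fold changes of modest size, and none passed the test. Ccl2, which encodes MCP-1, the main CCR2 ligand, had 112, 111 and 106 scaled reads in T1, T2 and T3, against 85.7, 41.2 and 75 in U1, U2 and U3. The groups did not overlap, treated libraries were nearly equal, and U2 was the low one. The log2 fold change was 0.76 ± 0.26 SE (95% interval 0.17 to 1.36, adjusted p = 0.081, limma).

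Ccl7, which encodes MCP-3, had 166, 167 and 109 scaled reads in T1, T2 and T3. It had 108, 90.1 and 88.6 in U1, U2 and U3, so T3 lay barely above U1 and the groups did not overlap. The log2 fold change was 0.60 ± 0.20 SE (95% interval 0.15 to 1.05, adjusted p = 0.0704, limma). Without T3 Ccl7 was called (log2 fold change 0.80, adjusted p = 0.014). Ccl12, which encodes MCP-5, a ligand found in mice, had 22.6, 58.8 and 40.3 scaled reads in T1, T2 and T3, against 42.9, 14.2 and 25.0 in U1, U2 and U3. Its groups overlapped broadly, and its interval was wide (log2 fold change 0.59, 95% interval -0.44 to 1.61, adjusted p = 0.419, limma).

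Ccl8, which encodes MCP-2, a ligand of CCR8 in the mouse, had 362, 377 and 262 scaled reads in T1, T2 and T3, against 286, 207 and 265 in U1, U2 and U3. T3 lay below both U1 and U3, so the groups overlapped. The log2 fold change was 0.40 ± 0.17 SE (95% interval 0.01 to 0.78, adjusted p = 0.148, limma). Ccl8 carries a limit that the other 8 genes have less of. Its transcript is 506 bases long and held 0.617 to 0.684 reads per base in treated and 0.318 to 0.514 in untreated libraries, where no gene in the table exceeded 0.923. Across the other 8 genes the highest was 0.285, for Ccl3 in T1. If each position was counted once, a step that no source used here states, high values would be compressed. With reads estimated from filled positions, Ccl8 had 512, 567 and 355 scaled reads in T1, T2 and T3, against 357, 224 and 318 in U1, U2 and U3. The log2 fold change was then 0.67 (adjusted p = 0.0573, limma), and T3 still lay just below U1. Without T3, on the values as deposited, Ccl8 was called (log2 fold change 0.56, adjusted p = 0.0325).

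**Figure D2:**
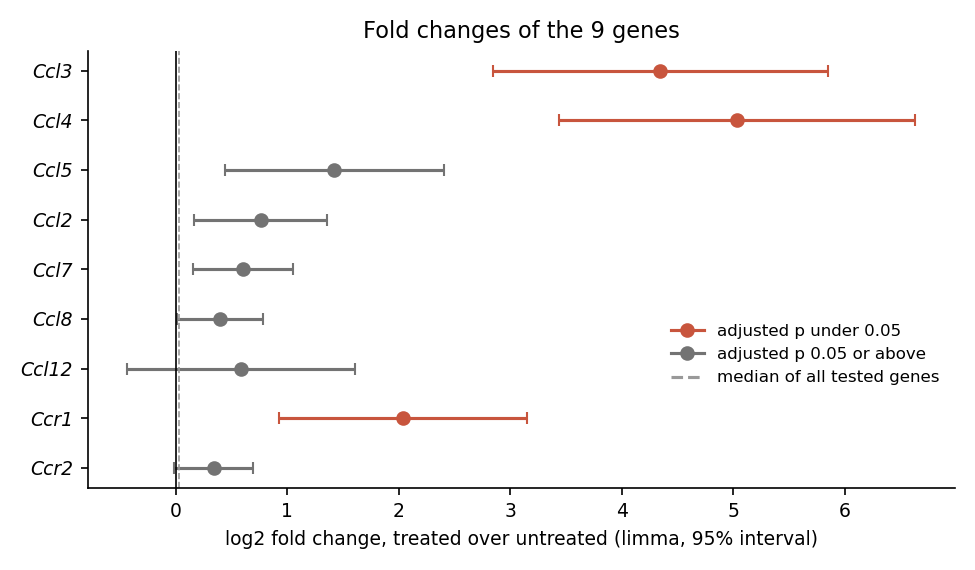
Log2 fold change of treated over untreated skin (x axis, limma on log2(scaled reads + 1)) for each of the 9 genes, with bars for the 95% interval and a dashed line at the median of all tested genes, 0.03. Ccl3, Ccl4 and Ccr1 passed the threshold, and the intervals of Ccl12 and Ccr2 include 0.

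The sequence before the start of transcription was read for the members that RefSeq's promoter table on GRCm38.p6 holds, which are 5 of the 9 (Ccl3, Ccl8, Ccl12, Ccr1 and Ccr2). That is the assembly behind mm10. The promoters of Ccl3, which rose, and of Ccl8 and Ccl12, which did not pass, are shown because they set the ligand gene with a large change beside a pair with none called. Each runs 5′ to 3′ on the gene's own strand from 250 bases before the start to 50 after it, at chr11:83649329-83649628 on the minus strand for Ccl3, chr11:82114935-82115234 on the plus strand for Ccl8 and chr11:82101595-82101894 on the plus strand for Ccl12. Capitals mark TATAAA on the gene's strand, the core of the TATA box.
Ccl3: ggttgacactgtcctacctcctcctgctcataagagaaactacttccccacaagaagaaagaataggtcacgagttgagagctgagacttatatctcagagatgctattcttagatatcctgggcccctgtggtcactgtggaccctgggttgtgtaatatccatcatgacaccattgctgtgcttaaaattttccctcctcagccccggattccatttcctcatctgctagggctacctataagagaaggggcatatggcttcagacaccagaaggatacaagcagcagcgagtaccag
Ccl8: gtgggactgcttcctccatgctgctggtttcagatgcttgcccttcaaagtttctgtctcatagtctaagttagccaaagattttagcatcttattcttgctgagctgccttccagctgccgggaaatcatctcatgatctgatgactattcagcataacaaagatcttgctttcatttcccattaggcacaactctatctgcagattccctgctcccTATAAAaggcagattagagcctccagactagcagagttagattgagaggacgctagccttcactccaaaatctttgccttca
Ccl12: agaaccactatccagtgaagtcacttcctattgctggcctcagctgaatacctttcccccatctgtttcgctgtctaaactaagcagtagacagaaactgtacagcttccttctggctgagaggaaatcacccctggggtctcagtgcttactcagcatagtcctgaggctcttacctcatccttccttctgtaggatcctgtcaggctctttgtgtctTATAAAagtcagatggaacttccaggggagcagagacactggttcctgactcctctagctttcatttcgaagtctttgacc
TATAAA began 32 bases before the start in Ccl8 and 31 bases before it in Ccl12, and the windows of Ccl3, Ccr1 and Ccr2 did not hold it. Near matches, such as tataag in the Ccl3 window, were not searched for. Among 32851 promoters of the table, 8.32% held TATAAA on the gene's strand anywhere in the window and 1.99% held it beginning 40 to 20 bases before the start. A kappaB-type word (GGGA, any base, TTTCC), an AP-1 word, TGANTCA, a C/EBP word, TTGCNNAA, and an Ets word, GAGGAAGT, were searched on both strands, and none was in the 5 windows. These words were in 0.411%, 7.81%, 10.8% and 3.2% of all promoters, in that order. The windows of Ccl8 and Ccl12 were 57.4% identical over a global alignment, and the other 9 pairs 48.3% to 54.1%.

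Of the receptor genes, Ccr1 rose and Ccr2 did not pass. Ccr1, whose product is used by neutrophils as well as monocytes in the mouse, had 459, 332 and 118 scaled reads in T1, T2 and T3, against 101, 38.6 and 63.6 in U1, U2 and U3. The groups did not overlap, with T3 close to U1. The log2 fold change was 2.04 ± 0.49 SE (adjusted p = 0.0252, limma). This call depended on single libraries, with adjusted p = 0.0789 without T1, 0.0833 without T2, 0.0807 without U2 and 0.0548 without U3, while the log2 fold change stayed between 1.64 and 2.62 over all 21 alternatives. It was also lost with limma-voom (adjusted p = 0.101) and when the spread was fitted with no trend (adjusted p = 0.0721).

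Ccr2, the receptor of classical monocytes, was the most read of the 9 genes, with 676, 734 and 585 scaled reads in T1, T2 and T3. It had 570, 404 and 621 in U1, U2 and U3, so the groups overlapped and U2 was low. The log2 fold change was 0.34 ± 0.16 SE (95% interval -0.02 to 0.70, adjusted p = 0.179, limma), and Ccr2 was called under none of the 21 alternatives, with adjusted p from 0.097 to 0.454. Set per length, the level of Ccr1 was 0.861, 0.574 and 0.255 of that of Ccr2 in T1, T2 and T3, against 0.225, 0.121 and 0.130 in U1, U2 and U3. Every treated library thus had a higher Ccr1 to Ccr2 ratio than every untreated one, by a small margin for T3.

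Levels were compared between genes as RPKM, reads per kilobase of transcript scaled to library depth. Ccl8 led in both groups, at 104 ± 19.4 RPKM in treated and 78.7 ± 12.7 RPKM in untreated skin (SD, n = 3 each), and its range lay clear of that of the next gene. In treated skin Ccr2 (29.3 ± 3.31), Ccl7 (29.3 ± 6.56), Ccl3 (24.1 ± 23.6), Ccl2 (21.6 ± 0.65), Ccl4 (20.4 ± 19.8), Ccr1 (16.9 ± 9.63), Ccl12 (12.1 ± 5.38) and Ccl5 (10.6 ± 4.87 RPKM) followed, and each neighbouring pair overlapped. In untreated skin the order was Ccr2 (23.4 ± 5.00), Ccl7 (19.0 ± 2.11), Ccl2 (13.2 ± 4.58), Ccl12 (8.12 ± 4.30), Ccr1 (3.78 ± 1.75), Ccl5 (3.53 ± 1.1), Ccl3 (0.70 ± 0.384) and Ccl4 (0.268 ± 0.265 RPKM). There, apart from Ccl8, only the steps between Ccl7 and Ccl2 and between Ccl5 and Ccl3 were clear of overlap. The treated SDs of Ccl3 and Ccl4 were nearly as large as their means.

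The make-up of the ligand transcripts differed between the groups. Ccl3 and Ccl4 together were 33.2%, 11.7% and 8.34% of the summed RPKM of the 7 ligands in T1, T2 and T3, against 0.677%, 0.521% and 1.1% in U1, U2 and U3. The 4 monocyte chemoattractant protein genes were 61.7%, 82.9% and 88.4% of the sum in T1, T2 and T3, against 97.7%, 95.6% and 95.4% in U1, U2 and U3. Neither share overlapped between groups, but both are parts of the same sum, so the second falls as the first grows. The mean RPKM of each monocyte chemoattractant protein gene was higher in treated than in untreated skin, although none of these genes was called. The summed ligand level was 283, 229 and 154 RPKM in T1, T2 and T3, against 143, 99.1 and 128 RPKM in U1, U2 and U3. With reads estimated from filled positions, which raises Ccl8, the Ccl3 and Ccl4 share was 29.6%, 8.77% and 6.45% in T1, T2 and T3, against 0.534%, 0.456% and 0.898% in U1, U2 and U3. These shares are descriptions and were not tested.

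**Figure D3:**
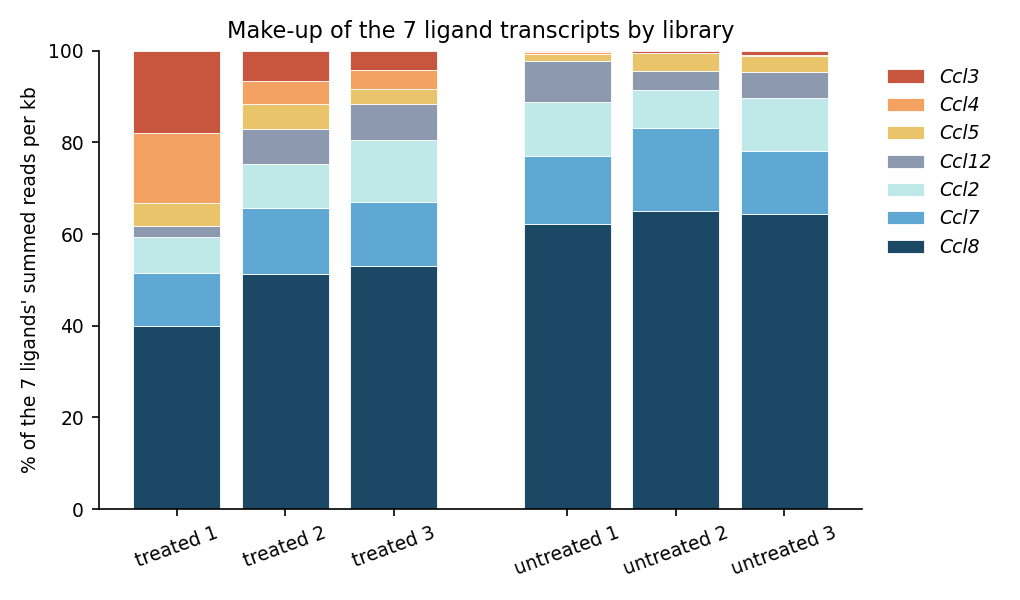
Share of each ligand gene in the summed reads per kilobase of the 7 ligand genes (y axis, percent), by library. Ccl8 was the largest part in all 6 libraries, and Ccl3 with Ccl4 filled 33.2% of the bar in T1 and at most 1.1% in any untreated library.

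The library with the lowest value in its group was often the same among the 9 genes, but not for all of them. T3 was the lowest treated library for 8 of them, all but Ccl12, while it was the lowest for 35.3% of all tested genes. U2 was the lowest untreated library for 6 of them (Ccl2, Ccl4, Ccl8, Ccl12, Ccr1 and Ccr2), against 40.5% of all tested genes. For Ccl4 this rests on 0 reads in U2 against 2 in U1 and 1 in U3. The ratio of the highest to the lowest treated library was 7.73 for Ccl3, 6.86 for Ccl4, 3.90 for Ccr1, 2.83 for Ccl5, 2.60 for Ccl12, 1.53 for Ccl7, 1.44 for Ccl8, 1.26 for Ccr2 and 1.06 for Ccl2, beside a median of 1.22 over all tested genes. Without T3 the count called higher was 6 of 9, with Ccl5, Ccl7 and Ccl8 added, against 1389 of all 15534 tested genes. Without T1, T2, U2 or U3 it was 2 of 9, Ccl3 and Ccl4. Over all tested genes, 856, 597, 751 and 1278 were then called higher, in that order.

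Marker genes of leukocytes were read beside the 9 genes. Of 11 neutrophil markers, 10 were tested and 8 rose, and their sum was 5406, 4416 and 2212 scaled reads in T1, T2 and T3, against 1671 to 1708 in untreated libraries. Retnlg (log2 fold change 4.50, adjusted p = 0.0034, limma) and Csf3r (3.29, adjusted p = 0.0053, limma) were among them, while Il1r2 (0.03, adjusted p = 0.942) and Hp (-0.01, adjusted p = 0.979, limma) were not. Ly6g, below the filter, had 39 reads in the treated group and none in the untreated group, which is at least 11.2-fold higher (floor of 3 reads, taken over the group). Of 9 monocyte markers, 8 were tested and 7 rose, and their sum was 2090 to 2644 scaled reads in treated and 727 to 1272 in untreated libraries. The monocyte surface gene Ly6c2 had 44.1, 76.2 and 37.8 scaled reads in T1, T2 and T3, against 12.1, 5.15 and 10.2 in U1, U2 and U3 (log2 fold change 2.41, adjusted p = 0.0064, limma). The count for monocytes was 2 to 4 when U1, U2, U3, T1 or T2 was left out. Of 12 macrophage markers, all tested, 2 rose, namely Trem2 and Cd68, and the sum was 7092 to 9742 scaled reads in treated and 4912 to 6524 in untreated libraries. Without T3 the count was 5, and without U3 it was 4. Adgre1, which encodes the macrophage protein F4/80, did not pass (log2 fold change 0.58, adjusted p = 0.0611, 0.039 without U3, limma).

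Markers of other leukocytes were read in the same way. Of 8 T cell markers 4 rose (Icos, Cd28, Cd4 and Cd8a), with sums of 706 to 891 scaled reads in treated and 309 to 458 in untreated libraries. The T cell count was 3 to 5 with a library left out, and Cd8a was lost without T2 (adjusted p = 0.0661, limma). The T cell receptor complex genes of the list did not pass and differed in sign. Cd3e (log2 fold change -0.49, adjusted p = 0.103, 0.0378 with no trend in the fitted spread, limma) and Cd3g (-0.22, adjusted p = 0.404, limma) had every treated value below every untreated one, while Cd3d was on the positive side (0.92, adjusted p = 0.0747, 0.0355 without U3, limma). Of 6 NK cell markers, 4 were tested, Gzma and Gzmb rose and Prf1 fell, with sums of 102 to 151 scaled reads in treated and 86.2 to 102 in untreated libraries. Of 7 mast cell markers 3 rose (Fcer1a, Kit and Tpsb2), with sums of 2017 to 2320 scaled reads in treated and 1407 to 2084 in untreated libraries. Of 6 dendritic and Langerhans cell markers none rose, and Cd207 and Cd209a fell, with sums of 345 to 490 scaled reads in treated and 623 to 787 in untreated libraries. No B cell, keratinocyte or fibroblast marker was called (limma, with no adjusted p under 0.05 among 1, 4 and 4 tested), and Siglecf of eosinophils and Emcn of endothelium rose, a call that Siglecf lost when any single library was left out and Emcn when any but U2 was. NK cell calls were 1 higher without T1, none without T2, and none lower without U1 or T1. Mast cell calls were 1 higher without U1, U2 or T3 and none without T2. Dendritic and Langerhans cell calls were 1 lower without U1, U3, T1 or T2. The part of these cell types in the values of the 9 genes was not tested.

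**Figure D4:**
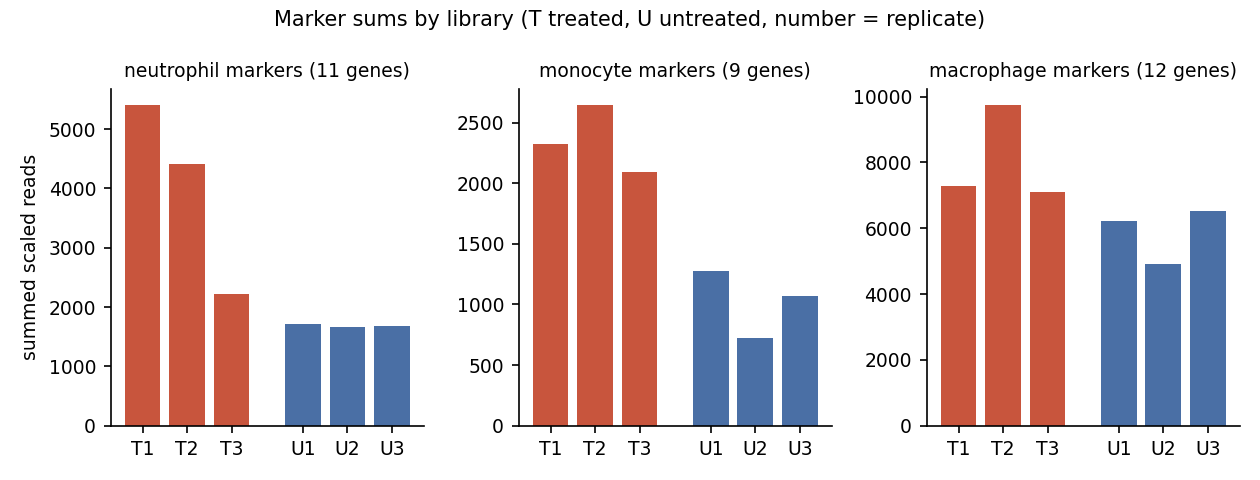
Summed scaled reads (y axis, linear, from 0) of the neutrophil, monocyte and macrophage marker lists in treated (T) and untreated (U) libraries. Neutrophil markers varied between 2212 in T3 and 5406 in T1, while monocyte markers lay between 2090 and 2644 in all treated libraries.

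The 9 genes sit in 3 stretches of the genome (mm10), and the fold changes differed within them. On chromosome 11, Ccl2 (82035577 to 82037452), Ccl7 (82045712 to 82047523), Ccl12 (82101845 to 82103399) and Ccl8 (82115185 to 82116799) lie within 81.2 kb on the plus strand. Ccl11, the eotaxin gene between Ccl7 and Ccl12, had a log2 fold change of 0.15 (adjusted p = 0.515, limma), and none of the 5 tested genes of that stretch was called. About 1409 kb further on, Ccl5 (83525779 to 83530518, minus strand) begins a second stretch of 139 kb that ends with Ccl4. Between Ccl5 and Ccl3 lie Ccl9 and Ccl6, which encode ligands of CCR1 in the mouse. Ccl9 had 508, 712 and 377 scaled reads in T1, T2 and T3, against 491, 462 and 492 in U1, U2 and U3 (log2 fold change 0.10, adjusted p = 0.779, limma), and its fold change was -0.14 without T2. Ccl6 had 556, 597 and 423 scaled reads in T1, T2 and T3, against 476, 387 and 439 in U1, U2 and U3 (log2 fold change 0.26, adjusted p = 0.226, limma; called without T3, adjusted p = 0.0311). The genes that rose in this stretch were thus the neighbours Ccl3 and Ccl4.

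On chromosome 9, Ccr1 (123962126 to 123968692, minus strand) and Ccr2 (124102183 to 124109140, plus strand) lie 133 kb apart with Ccr3, the eotaxin receptor gene, and Ccr1l1, below the filter, between them. Ccr3 did not pass (log2 fold change 0.80, adjusted p = 0.077, limma). Words of 50 bases in the annotated transcripts (GENCODE M21) were searched for reads that other genes could share. For Ccr2, 1.91% of its words occurred in transcripts of other genes, and for the other 8 genes none did.

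**Figure D5:**
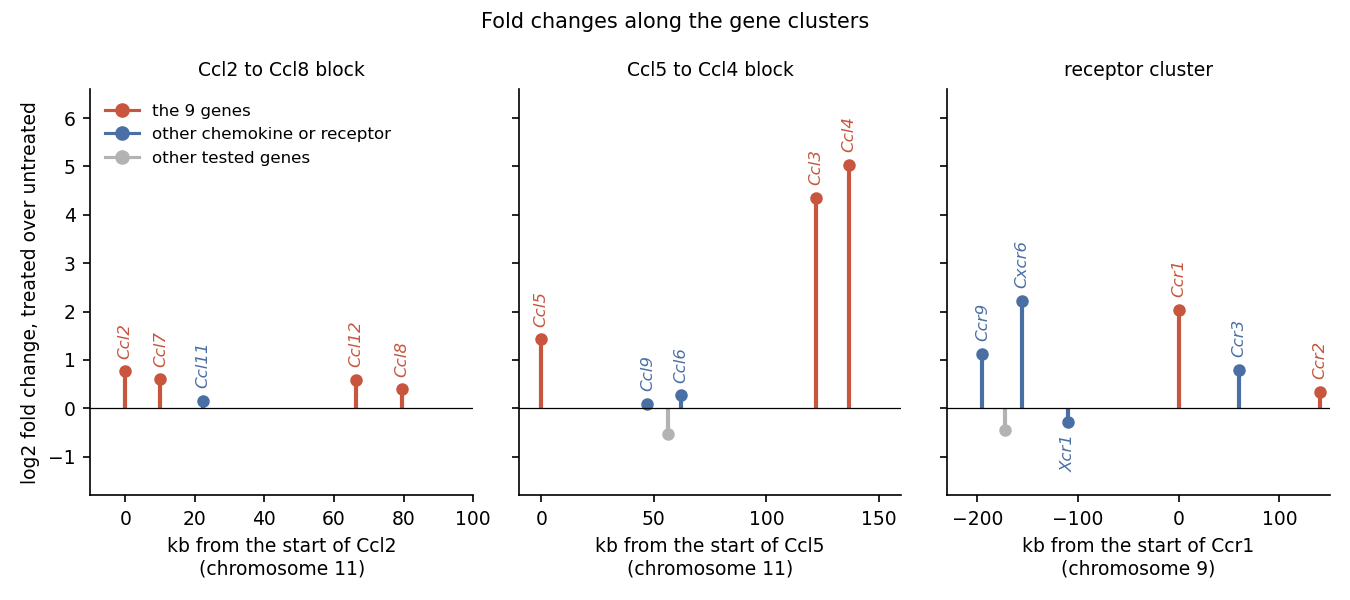
Log2 fold change of treated over untreated skin (y axis) for tested genes by distance in kb from Ccl2, Ccl5 and Ccr1 (x axes), with the 9 genes in red and other chemokine or receptor genes in blue. Ccl3 and Ccl4 reached 4.35 and 5.04, while Ccl9 and Ccl6 between them and Ccl5 stood at 0.10 and 0.26.

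Other genes of the same system were read from lists. Of 14 other CC chemokine genes, 11 had a row and 9 were tested. None of these rose (limma, adjusted p under 0.05), and 2 fell. Ccl22, which encodes a ligand of the skin-homing T cell receptor CCR4, had 96.1, 69.7 and 111 scaled reads in T1, T2 and T3, against 186, 188 and 401 in U1, U2 and U3 (log2 fold change -1.40, adjusted p = 0.0171, 0.0596 without T2, limma). Ccl20, which encodes the ligand of CCR6, also fell (log2 fold change -1.27, adjusted p = 0.039, limma), and this call was lost when any library but T3 was left out (adjusted p from 0.0528 to 0.125). Ccl1 had 9 reads in each group and Ccl17 had 16 reads in the treated and 20 in the untreated group, both below the filter.

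Among 13 tested genes of the other 14 CC, CX3C and atypical receptors, 2 rose and 2 fell. Ccr9, which encodes a receptor known from gut-homing T cells, was among those that rose (log2 fold change 1.13, adjusted p = 0.0226, 0.0544 without T1 and 0.0691 without T2, limma). Ccr4 fell (log2 fold change -1.62, adjusted p = 0.0079, limma), as did Ackr4, which encodes a scavenger of homeostatic chemokines (log2 fold change -0.87, adjusted p = 0.0124, 0.0527 without U1, limma). Ackr2, which encodes the scavenger of inflammatory CC chemokines, had 49.8, 74.1 and 99.2 scaled reads in T1, T2 and T3, against 119, 90.1 and 87.5 in U1, U2 and U3 and did not pass (log2 fold change -0.45, adjusted p = 0.281, limma). Ccrl2 (0.11, adjusted p = 0.862) and Cx3cr1 (0.40, adjusted p = 0.461, limma), the fractalkine receptor of patrolling monocytes, did not pass either.

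For receptor signalling and leukocyte motility, 11 of 18 tested genes rose and none fell. Those that rose included the exchange factor gene Vav1 (log2 fold change 1.25, adjusted p = 0.0063), the small GTPase gene Rac2 (1.02, adjusted p = 0.00945) and Dock2 (0.98, adjusted p = 0.0144, 0.053 without T2, limma). The widely expressed subunit genes Gnai2, Gnai3 and Gnb1 were not called. Without U1 or U2 the count was 6, without T1 it was 5 and without T2 it was 3. In the adhesion and extravasation list 8 of 16 tested genes rose and none fell. Vcam1 of activated endothelium (log2 fold change 1.49, adjusted p = 0.007), the integrin gene Itgal (2.06, adjusted p = 0.0074) and the selectin ligand gene Selplg (0.84, adjusted p = 0.0244, lost without U1, U2, T1 or T2, limma) were among those that rose. The adhesion count was 5 without U1 and 3 without U2, T1 or T2.

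A further list held cytokine and transcription factor genes known to induce these ligands, and the NF-kappaB inhibitor genes Nfkbia and Tnfaip3. Of its 15 tested genes, 3 rose and none fell. Il1b had 755, 353 and 160 scaled reads in T1, T2 and T3, against 53.8, 56.6 and 59.1 in U1, U2 and U3 (log2 fold change 2.61, adjusted p = 0.0079, limma). Tnf (1.5, adjusted p = 0.0223, 0.0764 without U1) and Il6 (1.78, adjusted p = 0.0326, lost without U1, U2, U3, T1 or T2, limma) rose as well, and the NF-kappaB subunit genes Nfkb1, Nfkb2, Rel, Rela and Relb were not called. The count was 1 without U1 and 0 with limma-voom. Among colony-stimulating factor and monocyte survival genes, none of 6 tested rose and 1 fell, Il34, a ligand of the CSF1 receptor made in epidermis (log2 fold change -0.66, adjusted p = 0.012, 0.0537 without U1, limma). Csf1 (0.08, adjusted p = 0.695) and Csf1r (0.34, adjusted p = 0.0859, limma) did not pass. Of the proteases known to cut CC chemokines, 5 of 8 tested rose, namely Mmp13 (4.16, adjusted p = 0.0038), Mmp8 (5.01, adjusted p = 0.0051), Mmp3 (0.93, adjusted p = 0.015), Mmp9 (1.95, adjusted p = 0.0198) and Mmp14 (0.39, adjusted p = 0.0201, limma). That count was 3 without U1 or U2 and 2 without T1 or T2. Dpp4, Mmp2 and Mmp12 of this list were not called.

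Likeness of pattern was measured as the root mean square difference of log2(value + 1) over the 6 samples, each gene centred on its own mean, among 13977 other genes with a mean of at least 20 scaled reads. The neutrophil chemoattractant gene Cxcl2 was the nearest to both Ccl4 (0.26 log2 units) and Ccl3 (0.47). Cxcl2 had 500, 109 and 59.7 scaled reads in T1, T2 and T3, against 6.59, 2.57 and 5.68 in U1, U2 and U3. The second nearest were the neutrophil gene Retnlg for Ccl4 (0.42) and the stefin family gene Cstdc4 for Ccl3 (0.49). For Ccr1 the nearest were Nfe2 (0.15), a transcription factor gene of blood cells, and Pglyrp1 (0.24), which encodes an antibacterial protein of neutrophil granules. Clec7a (0.15), the receptor gene for fungal beta-glucan, and Pilrb2 (0.21) were nearest to Ccl5. The nearest genes of the other members were Ctss (0.064) and Depdc7 (0.068) for Ccl8, Tubb6 (0.073) and Krt6b (0.092) for Ccl7, Cit (0.090) and Sinhcaf (0.096) for Ccl2, Col1a1 (0.046) and Evi2a (0.052) for Ccr2, and Htr2a (0.24) and Pabpc4l (0.27) for Ccl12. Among the 9 genes themselves, Ccl8 and Ccr2 were nearest to each other (0.12), as were Ccl3 and Ccl4 (0.68). A flat gene has many near neighbours by this measure, so the distances of members with small and large changes are not comparable. In U1, U2 and U3, Ccl3 had 2, 2 and 5 reads and Ccl4 had 2, 0 and 1. The distances of Ccl3 and Ccl4 thus depend in part on single reads.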

How the data were processed

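Stranded mRNA libraries were prepared from whole mouse skin (3 treated and 3 untreated samples), per the labels. The submitters' processing notes name STAR, DESeq2, bcl2fastq 2.20.0.422 and mm10, while the program that counted reads is not given in the sources used here. A single table was used, in which the authors deposited 17564 genes with a scaled signal per gene and library, transcript lengths, and the authors' deposited log2 fold changes, p-values and adjusted p-values. In each column 100% of values lay within 0.1 of a whole multiple of 1 step, so whole reads were recovered by division. The edgeR 4.0.16 quasi-likelihood test on those reads called 1249 genes higher and 1204 lower.

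Genes passing the edgeR function filterByExpr (minimum count 10, minimum total 15) entered a fit of log2(value + 1) in R 4.3.3 with limma 3.58.1, with a trend in the spread and group as the only term. Fold changes on that scale understate the change of low genes. A gene was called at Benjamini-Hochberg adjusted p under 0.05 over all 15534 genes tested. The members and the 19 gene and marker lists were chosen with earlier results of these data known. The genes named are the 9 members, the called genes of each list (those with the smallest p where more than 6 were called), a few fixed genes and the nearest patterns. Neighbouring chemokine and receptor genes, and uncalled genes of the lists beyond these, were named after their values were seen. Some genes of the lists are not reported here. Alternatives were DESeq2 1.42.0, edgeR and limma-voom on reads, other pseudocounts (0.5 and 5), filters and scalings, no trend in the spread, the replicate number as a block, each library left out, the 4 libraries of like depth (U1, U3, T1 and T2), a threshold of 0.01 and the authors' comparison. Reads estimated from filled positions, -L ln(1 - n/L) for n reads on L bases, and edgeR with the block were added after seeing the data. In simulated data for this comparison (15534 genes, 200 of them altered), limma found 93% of 3-fold changes and 37% of 1.5-fold changes, with 11 false calls among 15334 genes. Only genes above a minimum total of reads were altered, so these rates do not cover genes with few reads. Values were drawn independently, so shifts shared by many genes of a library were not simulated. Plots used Python 3.11.15 and matplotlib 3.10.9.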

Additional observations from a re-analysis of the deposited data

How the results depend on the processing

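Of the 9 genes, 3 were called higher in the fit reported, against 1 with limma-voom, 6 in the 4 libraries of like depth and 2 to 6 with a library left out. None of the 9 was called lower under any of the 22 alternatives run. Over all genes, counts of 1439 higher and 1123 lower became 1061 and 1127 with limma-voom and 1330 and 1375 in the 4 libraries of like depth. They became 922 and 640 without a trend in the spread and 362 and 288 at a threshold of 0.01. With a library left out they were 597 to 1389 and 518 to 1333. All 9 fold changes kept their direction under the 21 alternatives to the fit. The replicate number as a block gave 1348 higher and 1096 lower genes and the same 3 of the 9, Ccl3, Ccl4 and Ccr1. Same-numbered libraries did not deviate together (correlations of -0.085, -0.055 and 0.054 for numbers 1 to 3), so the number was not taken as a pairing. The 4 libraries of like depth added Ccl5, Ccl7 and Ccl8, and DESeq2 added Ccl5. The cause was not tested. Counts of called genes in the lists changed by over 1.5 times, or to or from 0, in 114 recomputations. In 722 they were unchanged or changed by at most 1.5 times, and these include counts that were 0 in both fits. Depth limits Ccl3 and Ccl4 most, which had 9 and 3 untreated reads.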

Other observations

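Between the chemokine stretches of chromosome 11 lie the Schlafen genes, a family of leukocyte and interferon-inducible genes, which were looked at after their values were seen. Of 8 tested genes of that family, Slfn4, Slfn1, Slfn2, Slfn8 and the pseudogene Slfn10-ps were called higher. Slfn4 had 900, 702 and 202 scaled reads in T1, T2 and T3, against 76.9, 38.6 and 85.2 in U1, U2 and U3 (log2 fold change 2.97, adjusted p = 0.0081, limma). Slfn1 had 267, 272 and 108 scaled reads in T1, T2 and T3, against 34.1, 24.4 and 35.2 in U1, U2 and U3 (log2 fold change 2.65, adjusted p = 0.0034, limma). Reads of close paralogs in this family may be shared, so single values are uncertain.

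In the receptor cluster of chromosome 9, Cxcr6, which encodes the receptor of a membrane-bound chemokine and marks tissue T cells, had 201, 175 and 187 scaled reads in T1, T2 and T3, against 37.4, 27.0 and 60.2 in U1, U2 and U3 (log2 fold change 2.22, adjusted p = 0.00248, limma). Treated libraries differed little from each other for Cxcr6, unlike Ccr1. Ccr8, the receptor of the proteins of Ccl1 and Ccl8 in the mouse, was below the filter with 29 reads in the treated and 10 in the untreated group, a ratio of 2.49 (95% counting interval 1.18 to 5.72).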
